A study of Mus musculus with 5 samples.

Results

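Leukemia inhibitory factor (LIF) is the cytokine that keeps mouse embryonic stem (ES) cells undifferentiated in culture. It binds the receptor chain LIFR, which pairs with the shared signalling chain gp130, encoded by Il6st, and the Janus kinases attached to both chains phosphorylate the transcription factor STAT3. STAT3 then enters the nucleus and switches on target genes, among them Socs3, whose product turns the receptor complex off again. The 10 genes described here include the ligand Lif, the receptor chains Lifr and Il6st, and the kinases Jak1, Jak2 and Tyk2. The others are the transcription factor Stat3, the feedback inhibitor Socs3, its family member Socs5, and the STAT3 target Pim1, a serine/threonine kinase. These 10 were taken by name from the 55147 gene symbols of the table, in a choice made with earlier results of these data known. All 10 were measured and passed the filter on low values, which was at least 1 TPM, the unit of transcript abundance, in at least 2 samples. Lif and Jak2 reached 1 TPM as deposited in the WT samples alone, so they entered the test through the group in which they were higher.

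The cells were E14Tg2a, a mouse ES cell line, grown on gelatin in medium with serum and LIF and given no treatment. There were 3 samples of the parental wild type (WT) and 2 samples of the C3G-/- genotype, called C3G null. C3G is a guanine nucleotide exchange factor encoded by Rapgef1, and in the null cells a puromycin cassette had replaced a stretch of N-terminal exons. To make them, cells had been nucleofected, selected with puromycin and grown from picked colonies, while WT were the parent cells. Genotype and this history cannot be told apart in these samples. The study raised several knockout clones by CRISPR, and it describes the sequenced samples of each genotype as independent, but the labels do not say which clone or clones the C3G null samples came from, or whether samples of a genotype were separate cultures. P-values therefore measure the spread between these samples, which may be technical.

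TPM set a transcript's reads against its length and against the sample's total, so they keep no read numbers, and the depth and counting error of each sample are unknown. Protein-coding genes held between 28.8% and 31.8% of the TPM in WT samples, and 18.6% and 26% in C3G null replicates 1 and 2. Small RNAs, grouped with ribosomal RNA and with mitochondrial ribosomal and transfer RNA, held between 58.8% and 63.7% in WT and 72.7% and 63.4% in these 2 samples. As deposited, the log2 fold change of the 12518 tested genes had a median of -0.55. Scaling by median of ratios, in which a sample is divided by the median ratio of its genes to their geometric mean, brought it to 0.0052. Levels and tests below are after this scaling unless they are called as deposited, and fold changes were taken on log2(TPM + 1), a scale that understates the change of genes with low TPM. Rapgef1, the targeted gene, had 8.66, 8.45 and 8.73 scaled TPM in WT and 6.34 and 6.13 in C3G null cells, a log2 fold change of -0.41 (SE 0.0585, limma, adjusted p = 0.00444), which was -0.11 (adjusted p = 0.239) with transcript length and GC corrected for. Transcripts of the exons beyond the replaced ones can still be made in such cells, so the level of the gene as a whole is a weak check of the genotype. All 10 ES cell markers were detected, with a summed level between 1692 and 2105 scaled TPM in WT and between 2587 and 2893 in C3G null cells. Of them, 2 were called higher, 1 lower and 7 neither way, beside 14.1% higher and 16.6% lower of all tested genes.

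Of the 10 LIF, JAK and STAT3 genes, 1 rose in C3G null cells, where 14.1% of all tested genes did, and 5 fell, where 16.6% of all tested genes did (limma, adjusted p under 0.05, the test behind every adjusted p below unless another is named). Lifr rose. Lif, Jak1, Jak2, Socs5 and, close to the threshold, Socs3 fell, and of these Lif and Jak2 had entered the test through WT alone. Il6st, Tyk2, Stat3 and Pim1 did not pass the test. The median log2 fold change of the 10 genes was -0.20. As deposited, none was higher, by the adjusted or the unadjusted p from limma, 8 were lower and 2 did not pass, with a median of -0.85. The backgrounds at the adjusted p were then 1.45% higher and 56.8% lower, so the count of 8 has to be read against a fall in most genes. At the unadjusted p 204 of the 12518 tested genes were higher. After the correction for length and GC described below, 2 of the 10 were higher, beside 16.7% of all genes, and 4 lower, beside 14.2%. In the plot of levels by sample, as deposited both C3G null values were under the WT range for 9 genes and above for none, patterns that 75.7% and 1.49% of the tested genes had. After scaling they lay below for 6 genes, above for 1 and overlapped for 3, while 29.3% of tested genes lay below and 29.5% above. In bulk RNA, fewer cells of a type and less RNA per cell cannot be told apart.

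**Figure D1:**
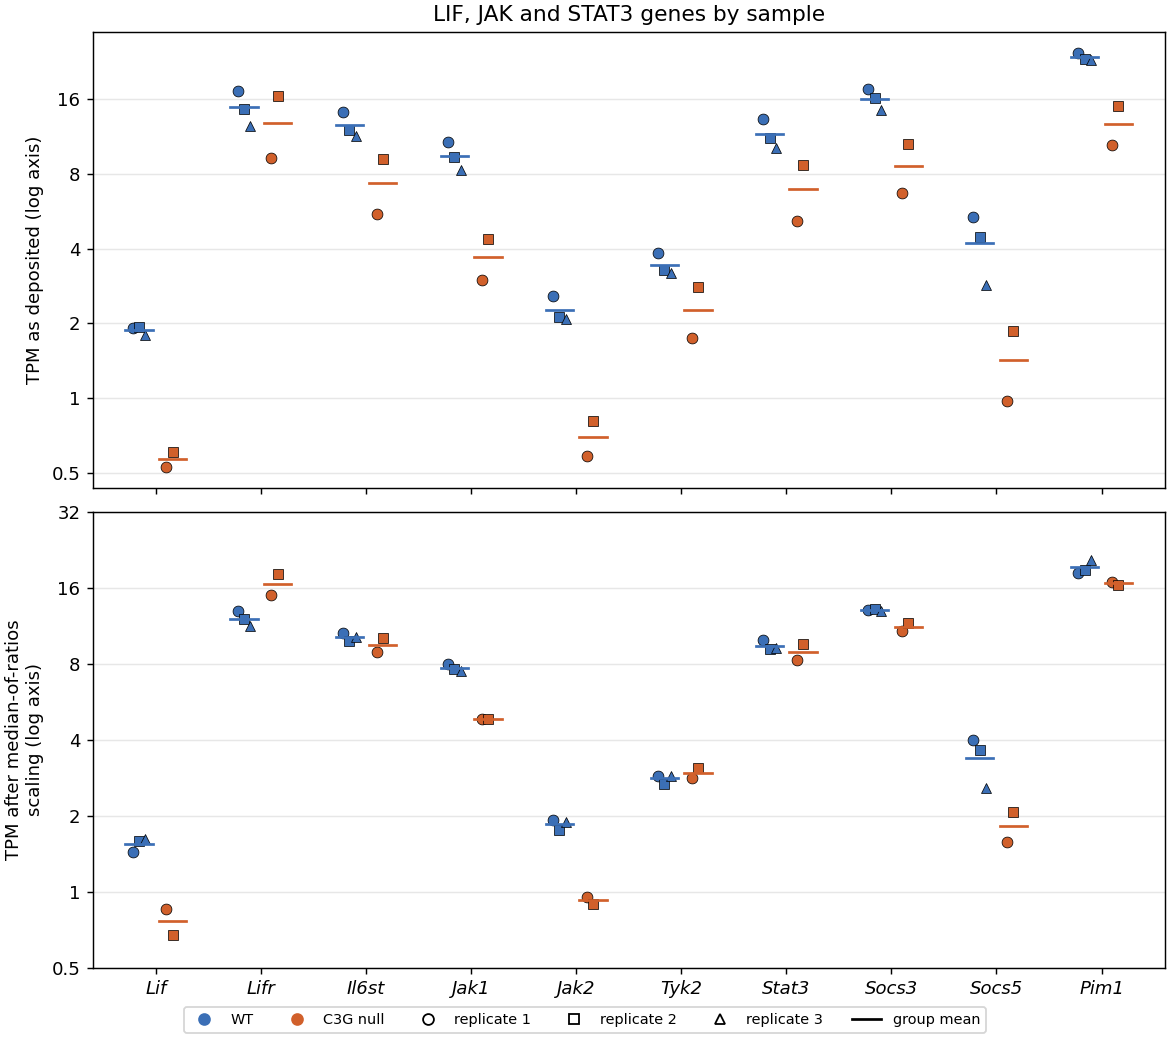
Level of the 10 genes in each of the 5 samples, as deposited (top, TPM, log axis) and after median-of-ratios scaling (bottom, TPM, log axis), with WT in blue, C3G null in orange, the replicate number given by the symbol and the group mean as a bar. Jak1, which was 4.83 for both null replicates and at least 7.46 in WT after scaling, is among the genes apart on both scales, while Lifr overlaps as deposited and is higher in C3G null samples after scaling.

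TPM are per length, so levels can be set side by side between genes. Among WT samples the order of scaled levels was Pim1, Socs3, Lifr, Il6st, Stat3, Jak1, Socs5, Tyk2, Jak2 and Lif, from 19.3 ± 1.27 TPM (SD, n = 3) down to 1.55 ± 0.102 TPM. The ranges of neighbours in that order were apart, except those of Il6st and Stat3, and of Socs5 and Tyk2, which overlapped. In C3G null cells Lifr stood next to Pim1, at 16.6 ± 2.2 and 16.7 ± 0.298 TPM (SD, n = 2), and the ranges of the pair overlapped, as did those of Il6st and Stat3. Tyk2 stood above Socs5 there.

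The ligand Lif (ENSMUSG00000034394, chromosome 11 of GRCm38 from 4257557 to 4272514, plus strand) was the lowest of the 10 genes. As deposited it had 1.91, 1.94 and 1.79 TPM in WT and 0.53 and 0.61 TPM in C3G null cells. After scaling these were 1.43, 1.59 and 1.62 TPM against 0.857 and 0.673 TPM. No C3G null sample reached the lowest WT sample on either scale. The mean was 2.02 times as high in WT after scaling, and the log2 fold change of -0.53 (SE 0.0859, adjusted p = 0.00686) was smaller in size than that ratio because of the pseudocount. These are transcripts of the cells' own Lif, in medium to which LIF protein had been added. Most of the TPM came from Lif-201, with an open reading frame of 158 codons, at 1.14 ± 0.0265 TPM (SD, n = 3) as deposited in WT. Lif-202, with 203 codons, was listed at 0.14, 0.13 and 0.12 TPM in WT and at 0 in both C3G null samples.

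Lifr (ENSMUSG00000054263, chromosome 15, 7090614 to 7197489, plus strand), the ligand-binding chain of the receptor, was the gene that rose. Its scaled level was 12.9, 12 and 11.3 TPM in WT and 15 and 18.1 TPM in C3G null cells. The C3G null samples were both above the highest WT sample, with a mean 1.37 times that of WT and a log2 fold change of 0.43 (SE 0.0999, adjusted p = 0.0234). As deposited the groups overlapped, with 17.22, 14.60 and 12.43 TPM against 9.28 and 16.41 TPM, and the change had the other sign, at -0.22 (adjusted p = 0.422). The scaled rise also missed the threshold without C3G null replicate 2, at 0.30 (adjusted p = 0.0966), without WT replicate 2 (adjusted p = 0.074) and without WT replicate 3 (adjusted p = 0.0521). Part of the value in C3G null replicate 2 came from Lifr-205, a transcript with no open reading frame, which had 2.48 TPM there as deposited, 0.63 TPM in the other C3G null sample, 1.14 TPM in WT replicate 1 and 0 in the remaining WT samples. Counting protein-coding transcripts alone, Lifr had 11.1, 11.4 and 10.6 scaled TPM in WT and 13.3 and 14.7 in C3G null cells, again without overlap. Of the other genes, this count brought Stat3 out of and Pim1 into overlap, with the values given below.

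Il6st (ENSMUSG00000021756, chromosome 13, 112464070 to 112510086, plus strand) encodes gp130, which carries the signal of LIF and the other interleukin-6 family cytokines into the cell. It had 10.6, 9.82 and 10.2 scaled TPM in WT and 8.91 and 10.1 in C3G null cells. The groups overlapped, and the log2 fold change of -0.095 did not pass (adjusted p = 0.385). As deposited it was -0.72 (adjusted p = 0.0121). The ratio of the receptor chains to each other within a sample, taken on TPM without a pseudocount, does not depend on scaling. Its log2 value, Lifr to Il6st, was 0.28, 0.29 and 0.14 in WT and 0.75 and 0.84 in C3G null samples, so that Lifr was 1.18 times Il6st in WT and 1.74 times in C3G null cells by geometric mean. The C3G null samples lay above all WT samples, and the difference of 0.56 had p = 0.1 in a two-sided exact permutation test, the smallest that 3 samples against 2 can give, and 0.2 after adjustment over the 4 ratios tested.

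Soluble forms of the receptor, which lack the membrane anchor and can bind LIF outside the cell, are made from shorter Lifr transcripts. Lifr-202, Lifr-206 and Lifr-207 have 719 codons, against 1092 in Lifr-201 and Lifr-203, and Lifr-206 is annotated as a target of nonsense-mediated decay. As a share of the TPM of both forms they held 10.9%, 10.4% and 9.8% in WT and 9.76% and 7.5% in C3G null samples. The C3G null samples were both lower, by little in replicate 1. This share was computed after the transcripts had been seen and was not tested.

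Jak1 (ENSMUSG00000028530, chromosome 4, 101152367 to 101265282, minus strand), the main kinase bound to gp130, fell in C3G null cells. It had 10.71, 9.33 and 8.23 TPM as deposited in WT and 2.99 and 4.38 TPM in C3G null samples. After scaling these became 8.02, 7.65 and 7.46 TPM against 4.83 TPM in each of the C3G null replicates. WT was 1.59 times as high, and the log2 fold change was -0.58 (SE 0.0617, adjusted p = 0.00166). Nearly all of it came from Jak1-201, with 1153 codons, at 8.65 ± 1.06 TPM (SD, n = 3) as deposited in WT and, in C3G null cells, at 3.25 ± 1.06 TPM (SD, n = 2). Jak1 was lower past the threshold in all 17 alternatives tried, with an adjusted p of at most 0.0235.

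Jak2 (ENSMUSG00000024789, chromosome 19, 29251828 to 29313080, plus strand), a related kinase that also binds gp130, was expressed at a lower level than Jak1 and fell too. Its scaled level was 1.93, 1.75 and 1.88 TPM in WT and 0.954 and 0.894 TPM in C3G null samples. The groups were well apart relative to the spread within them, with WT at 2.01 times the C3G null mean and a log2 fold change of -0.57 (SE 0.0735, adjusted p = 0.00319). It was lower in each of the 16 alternatives that tested it, but it had passed the filter of the main test through WT alone. The log2 ratio of Jak2 to Jak1 without a pseudocount was -2.05, -2.13 and -1.98 in WT and -2.34 and -2.43 in C3G null samples, a difference of -0.33 (two-sided exact permutation p = 0.1, 0.2 adjusted). With a pseudocount of 1 added to the TPM as deposited, the main form of the ratios, this one moved the other way, by 0.22 (exact permutation p = 0.1, 0.2 adjusted). That form does depend on scaling, and it was not computed on scaled TPM. At levels near 1 TPM the direction depended on the pseudocount, so none was read from this ratio. For the other 3 ratios the form with the pseudocount kept the sign, at 0.50 for Lifr to Il6st and -0.16 for both Socs3 and Pim1 to Stat3.

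Tyk2 (ENSMUSG00000032175, chromosome 9, 21104068 to 21131243, minus strand), the remaining Janus kinase of the group, had 2.87, 2.68 and 2.88 scaled TPM in WT and 2.83 and 3.08 in C3G null samples. The groups overlapped and the log2 fold change of 0.053 did not pass (adjusted p = 0.592). Its sign depended on the scaling, since it was -0.45 as deposited (adjusted p = 0.059). It was 0.30 once transcript length and GC content had been corrected for (adjusted p = 0.0184). Fold changes of all genes were related to transcript length, with a Spearman correlation of -0.314 across 12514 genes, which share the same 5 libraries and are not independent replicates.

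**Figure D2:**
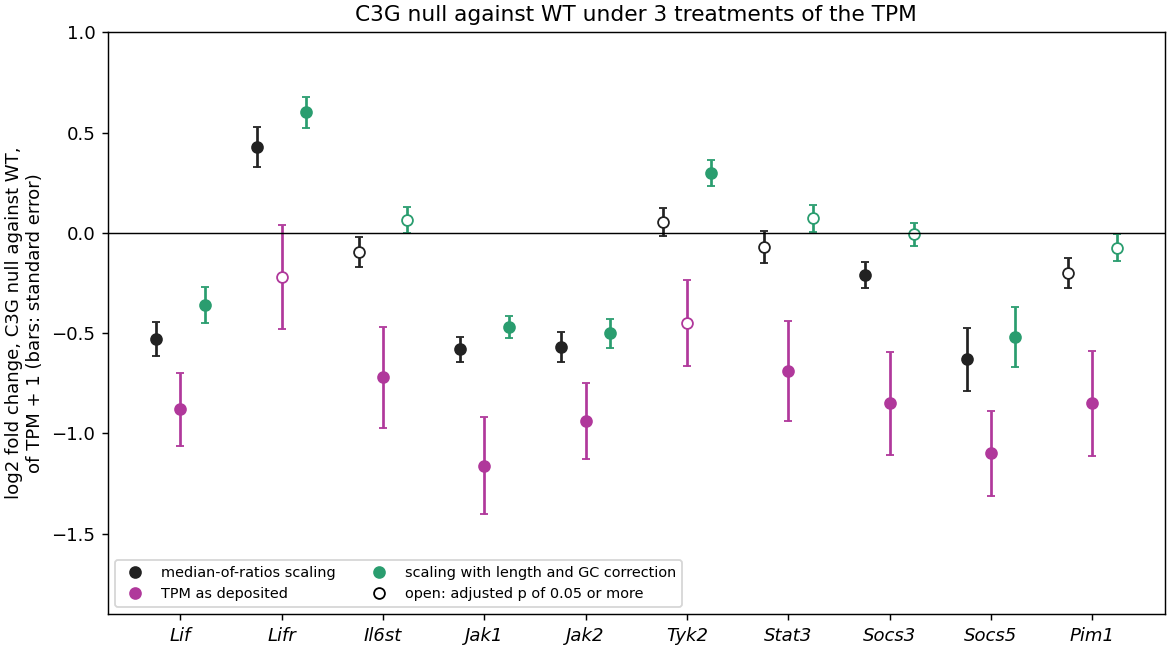
Log2 fold change of TPM + 1, C3G null against WT, of the 10 genes with its standard error, under median-of-ratios scaling, as deposited and with length and GC content corrected for, where open points mark an adjusted p of 0.05 or more. Jak1 is at -0.58, -1.16 and -0.47 on the 3 scales, while Lifr is at 0.43 and 0.60 on the scaled values and at -0.22 as deposited.

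The transcription factor Stat3 (ENSMUSG00000004040, chromosome 11, 100885098 to 100939540, minus strand) had 13.24, 11.16 and 10.17 TPM as deposited in WT and 5.14 and 8.68 TPM in C3G null samples. After scaling it had 9.92, 9.15 and 9.21 TPM against 8.31 and 9.58 TPM. The scaled groups overlapped, and the log2 fold change of -0.07 (SE 0.0803) did not pass (adjusted p = 0.542). As deposited it was -0.69 (adjusted p = 0.0151), beside a median of -0.55 for all genes. The scaled value changed sign without C3G null replicate 1, to 0.023. Protein-coding Stat3 transcripts alone had 7.5, 7.27 and 7.5 scaled TPM in WT and 5.79 and 7.02 in C3G null samples, so that by this count, which was not tested, the groups did not overlap. These are transcript levels, and phosphorylation of the STAT3 protein was not measured in these files.

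STAT3 is made in an alpha and a beta form, which differ at the C-terminal end through the splice acceptor of 1 exon. Both hold the tyrosine at codon 705 that the Janus kinases phosphorylate, while the beta form lacks the transactivation domain and the serine at codon 727. The ends of the coding sequences are shown because they carry these phosphorylation sites. They are spliced sequence of the GENCODE M21 transcripts, 5′ to 3′ on the minus strand, from the start of the exon that holds codon 705 to the last codon before the stop. Stat3-203 spans chr11:100888708-100889928 and Stat3-202 spans chr11:100889519-100889928 in GRCm38. Capitals mark codon 705 and, in the alpha form, codon 727.
Stat3-203, alpha, 770 codons: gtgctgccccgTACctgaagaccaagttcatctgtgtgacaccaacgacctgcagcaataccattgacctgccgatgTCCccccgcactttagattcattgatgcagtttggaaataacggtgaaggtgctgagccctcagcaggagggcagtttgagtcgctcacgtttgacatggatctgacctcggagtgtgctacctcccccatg
Stat3-202, beta, 722 codons: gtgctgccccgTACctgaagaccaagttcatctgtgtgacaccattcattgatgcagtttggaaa

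Skipping the 50 bases at chr11:100889541-100889590 puts the beta form in another reading frame, which soon meets a stop. Stat3-203 had 7.63 ± 0.469 TPM (SD, n = 3) as deposited in WT, against 4.05 ± 1.32 TPM (SD, n = 2) without C3G, and held the largest share of the gene. Stat3-202 had 0.41, 0.21 and 0.19 TPM as deposited in WT and 0.06 and 0.10 TPM in C3G null samples. The beta share of alpha and beta together was then 4.1%, 2.37% and 2.29% in WT and 1.68% and 1.57% in C3G null samples. The C3G null samples were lower, but the values of Stat3-202 lie near the rounding of the table, at 2 decimals, and the share was looked at after the transcripts had been seen and was not tested. The error of the transcript estimates is not in the table.

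Socs3 (ENSMUSG00000053113, chromosome 11, 117966079 to 117970047, minus strand) is induced directly by STAT3 and blocks the kinases at gp130. It had 17.55, 16.08 and 14.40 TPM as deposited in WT and 6.67 and 10.54 TPM in C3G null samples. After scaling these were 13.1, 13.2 and 13 TPM against 10.8 and 11.6 TPM. Both C3G null samples lay below the narrow WT range, by a ratio of means of 1.17. The log2 fold change of -0.21 (SE 0.0628, adjusted p = 0.0485) was just inside the threshold, and the call was lost in 10 of 17 alternatives. It was lost without any 1 of the 5 samples, with an adjusted p between 0.0655 and 0.178 from limma, and the fold change was -0.0075 with length and GC corrected for (adjusted p = 0.937). The log2 ratio of Socs3 to Stat3 within a sample, without a pseudocount, was 0.41, 0.53 and 0.50 in WT and 0.38 and 0.28 in C3G null samples, a difference of -0.15 (two-sided exact permutation p = 0.2, 0.267 adjusted).

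The Socs3 promoter is shown because it was the only member window that held the symmetric STAT motif TTCNNNGAA. Windows were the 250 bases before each RefSeq start of the 9 members with an entry, 11 windows in all, and the motif reads the same on both strands. It was in 1 of these windows and in 2306 of 32851 RefSeq windows, 7.02%. A match is a description of the sequence, and binding was not measured. The window is chr11:117969367-117969616 on the minus strand of GRCm38.p6, 5′ to 3′, with the motif in capitals from base -154 to base -146. It lies upstream of Socs3-201, which held nearly all Socs3 TPM, and covers the first exon of the non-coding transcript Socs3-203.
Socs3 promoter: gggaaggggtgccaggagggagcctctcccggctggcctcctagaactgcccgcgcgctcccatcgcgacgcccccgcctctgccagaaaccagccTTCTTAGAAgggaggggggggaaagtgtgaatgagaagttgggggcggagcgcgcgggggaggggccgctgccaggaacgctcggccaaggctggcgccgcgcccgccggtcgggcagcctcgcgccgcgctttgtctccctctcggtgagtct

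Socs5 (ENSMUSG00000037104, chromosome 17, 87107679 to 87137839, plus strand), another member of the family of suppressors of cytokine signalling, fell further than Socs3 but with a wide spread. Its scaled level was 3.99, 3.63 and 2.58 TPM in WT and 1.58 and 2.06 TPM in C3G null samples. The lowest WT sample, replicate 3, was near the higher C3G null sample, without overlap. WT was 1.87 times as high, and the log2 fold change was -0.63 (SE 0.158, adjusted p = 0.0287). The call was lost without WT replicate 1 (adjusted p = 0.0647), WT replicate 2 (0.0765), C3G null replicate 1 (0.142) or C3G null replicate 2 (0.0613).

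Pim1 (ENSMUSG00000024014, chromosome 17, 29490753 to 29496112, plus strand) was the most abundant of the 10 genes in WT. It had 18.3, 18.9 and 20.7 scaled TPM in WT and 16.9 and 16.5 in C3G null samples. No C3G null value reached the WT range, but the log2 fold change of -0.20 (SE 0.0749) did not pass (adjusted p = 0.095). It passed as deposited, at -0.85 (adjusted p = 0.00464), with TPM over protein-coding genes, at -0.42 (0.00661), with quantile normalization, at -0.25 (0.0415), and with a filter of 5 TPM, at -0.24 (0.0419). Protein-coding Pim1 transcripts alone overlapped between the groups, with 12.6, 13.6 and 11.8 scaled TPM in WT and 9.49 and 12.9 in C3G null samples. The log2 ratio of Pim1 to Stat3 overlapped between groups, with 0.88, 1.04 and 1.17 in WT and 1.02 and 0.78 in C3G null samples, and its difference of -0.13 had an exact permutation p of 0.4.

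The share of a gene's TPM in its main transcript, the one with the highest mean over the 5 samples, was compared for 6 of the 10 genes. With 3 samples against 2 no share could pass 0.05, since the smallest p is 0.1. The test therefore cannot decide whether a share changed (two-sided exact permutation test, adjusted p of at least 0.75). For Jak2 the main transcript, Jak2-202, was below Jak2-204 in WT replicate 3 and in both C3G null samples. Stat3-203 held 66.6% ± 4.79 (SD, n = 3) of Stat3 in WT, against 59.1% ± 2.27 (SD, n = 2) in C3G null cells (exact permutation p = 0.2). Among the protein-coding transcripts of Stat3 that share was 84.5% ± 2.94 and 82.8% ± 6.15. The shares of Jak2-202, Socs5-201 and Pim1-201 spread widely within a genotype, with SDs between 3.86 and 17.7 percentage points. Il6st-201, the main gp130 transcript, held 65.4% ± 1.85 in WT and 64.9% ± 0.171 in C3G null cells.

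**Figure D3:**
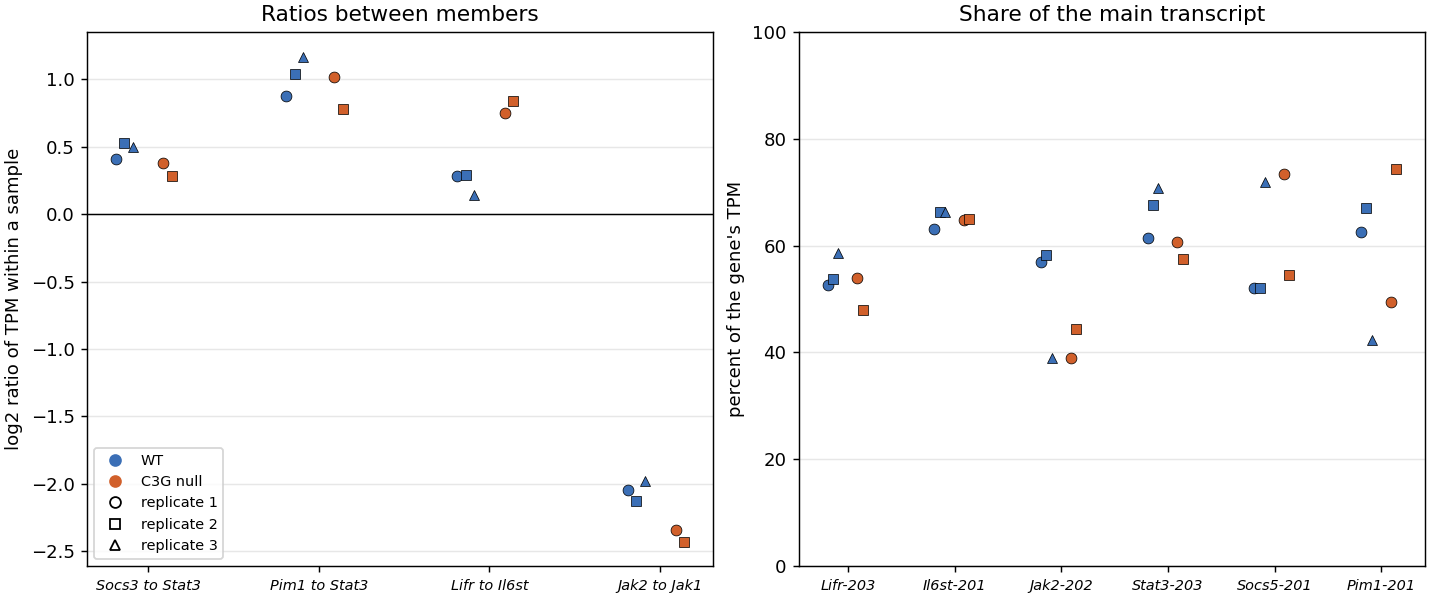
Left, log2 ratio of TPM between pairs of the genes within each sample, without a pseudocount. Right, percent of each gene's TPM in its main transcript, the one with the highest mean over the 5 samples, for 6 genes. Points are samples, WT in blue and C3G null in orange. The ratio of Lifr to Il6st is at most 0.29 in WT and at least 0.75 in C3G null samples, and the transcript shares overlap except for Stat3-203, at 61.4% or more in WT and at 57.5% and 60.7% in C3G null samples.

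The pathway around these genes was described with 5 lists that hold 66 genes, of which 55 were tested. The lists were chosen with earlier results of these data known. Their counts beside the shares of all genes are therefore a description and give no support. Of the 45 tested genes other than the 10, 1 rose and 15 fell, beside 14.1% and 16.6% of all tested genes, and 3 of the 15, Cntfr, Il11ra1 and Stat5b, reached 1 TPM in WT samples alone. Next to the LIF receptor, 10 further ligands and receptor chains of the interleukin-6 family were listed and 3 were tested, and the untested ones, among them Il6, Osm, Il6ra and Osmr, stayed under the filter. Of the 3, Cntfr, the receptor chain for ciliary neurotrophic factor, fell most. It had 3.39, 2.83 and 2.65 scaled TPM in WT and 0.566 and 0.673 in C3G null samples, a log2 change of -1.28 (adjusted p = 0.000574), and WT was 4.77 times as high. The interleukin-11 receptor chain Il11ra1 fell too, from 1.19 ± 0.173 (SD, n = 3) to 0.672 ± 0.124 scaled TPM (SD, n = 2), a change of -0.38 (adjusted p = 0.035) that missed the threshold without any 1 of the samples other than WT replicate 1. The third, Cntf, also reached 1 TPM in WT samples alone, so the count of these genes gives no support.

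Of the 6 other tested Janus kinases and STATs, 1 rose and 1 fell, beside 14.1% and 16.6% of all tested genes. Stat4, which carries interleukin-12 signals in lymphocytes, had 2.27 ± 0.254 scaled TPM (SD, n = 3) in WT, against 3.01 ± 0.107 (SD, n = 2) in C3G null cells, a log2 change of 0.30 (adjusted p = 0.0452) that turned to -0.20 as deposited. Stat5b, a STAT that other cytokines and growth hormone use, was low, at 0.929 ± 0.0171 scaled TPM in WT and 0.59 ± 0.103 in C3G null cells, and fell by 0.28 on the log2 scale (adjusted p = 0.0476), having passed the filter through WT alone. Both calls were close to the threshold, and each was lost without any 1 of the 5 samples.

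Among 11 other tested inhibitors of the pathway, which include the SOCS and PIAS families and the phosphatases, 1 fell at the adjusted p from limma and none rose. Of all tested genes 16.6% fell and 14.1% rose. None of the 11 was higher at the unadjusted p either, where 2701 of the 12518 tested genes were. Socs4 fell, with 2.53, 2.27 and 2.23 scaled TPM in WT and 1.15 and 1.1 in C3G null samples. Its log2 fold change was -0.65 (adjusted p = 0.00216), with WT at 2.08 times the C3G null mean. The median over those 11 genes was 0.021, near that of all genes.

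Of the 18 other tested genes on the list of LIF and STAT3 targets of ES cells, 8 fell and 10 did not pass, beside 16.6% lower among all genes. The 8 became 5 without WT replicate 2, where 1385 of 12111 tested genes were lower. They became 3 without a filter (1634 of 33039) and 4 with a replicate block and the length and GC correction together (1338 of 12514). They were also fewer without either C3G null sample, a fit that leaves 1 sample in that group. By limma none rose at the adjusted p, beside 14.1% of all genes. At the unadjusted one 3 lay higher, where 2701 of the 12518 tested genes did. Junb, an AP-1 transcription factor that LIF induces in ES cells, had 14.6, 14.5 and 13.2 scaled TPM in WT and 6.68 and 6.98 in C3G null samples, a log2 change of -0.95 (adjusted p = 0.000522). Gbx2, a homeobox gene downstream of STAT3, had 5.07, 5.07 and 4.61 scaled TPM in WT and 2.21 and 2.7 in C3G null samples, and a log2 change of -0.78 (adjusted p = 0.00188). The WT mean was 2.07 times the C3G null mean for Junb and 2 times for Gbx2, without overlap. Klf4, a pluripotency factor that STAT3 induces, had 13.1, 12.9 and 10.8 scaled TPM against 7.11 and 9.56, and a log2 change of -0.51 (adjusted p = 0.0348). Its call was lost without WT replicate 1, WT replicate 2 or C3G null replicate 1, and with length and GC corrected for (-0.35, adjusted p = 0.0855). The study reported the other direction for Klf4, with its transcript by qPCR and its protein by western blot raised without C3G. Why these measurements differ from the sequenced samples was not tested. The other 5 that fell, named here after their values were seen, were Bcl3, Myc, Klf5, Icam1 and Zfp36, with log2 fold changes from -0.50 to -0.38. The 10 that did not pass were also named after their values were seen. They were Pim3 at 0.30, Nanog at 0.29, Ier3 at 0.20, Pim2 at 0.15, Tfcp2l1 at 0.14, Esrrb at 0.12 and Tbx3 at 0.053. Below 0 were Fos at -0.093, Cd9 at -0.18 and Sall4 at -0.22. With the length and GC correction, 3 of the 18 were higher and 8 lower, beside 16.7% and 14.2% of all genes.

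LIF receptors also signal through adapters to the ERK and phosphatidylinositol 3-kinase pathways. Of 7 such genes 3 fell and none rose at the adjusted p from limma, beside 16.6% and 14.1% of all genes. At the unadjusted p 5 of the 7 were lower and none was higher, where 2791 and 2701 of the 12518 tested genes were. The 3 became 1 without WT replicate 2, where 1385 of 12111 tested genes were lower. They also became 1 without a filter (1634 of 33039) and with length and GC corrected for (1771 of 12514). They were fewer as well without C3G null replicate 1, a fit that leaves 1 sample in that group. The adapters Shc1 and Gab1 and the kinase Yes1 fell, by log2 values of -0.42, -0.36 and -0.38 in that order (adjusted p = 0.0171, 0.0125 and 0.0102), and those of Shc1 and Gab1 missed the threshold with length and GC corrected for (adjusted p = 0.0506 and 0.0992). Without WT replicate 2 or without C3G null replicate 1 both missed it as well, and Shc1 also without C3G null replicate 2 (adjusted p between 0.0515 and 0.0757).

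**Figure D4:**
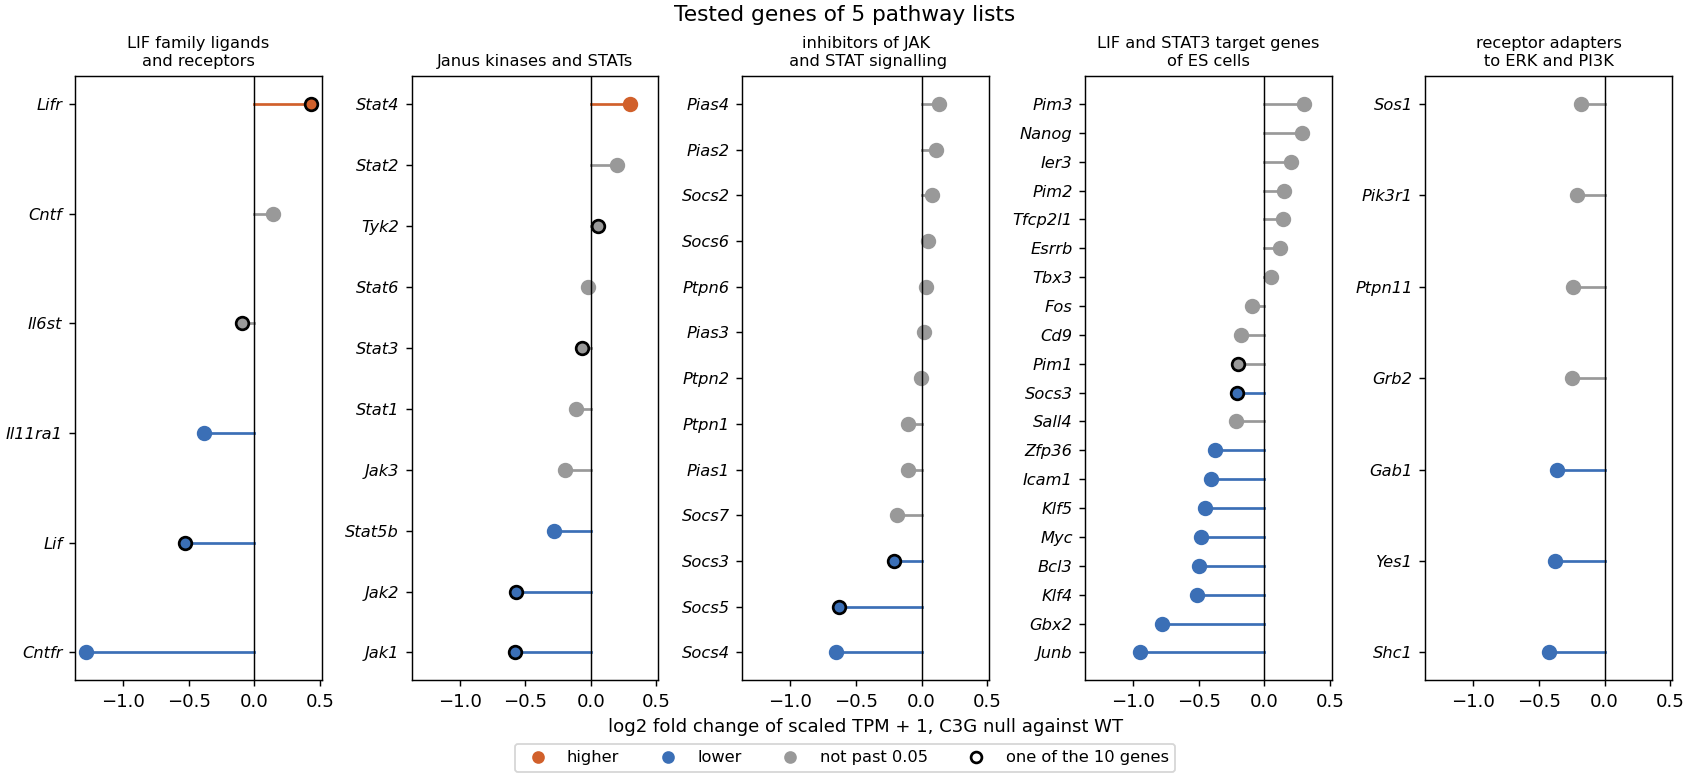
Log2 fold change of scaled TPM + 1, C3G null against WT, of the 55 tested genes in 5 pathway lists, coloured by the limma call, with a black ring around the 10 LIF, JAK and STAT3 genes. The target list runs from Junb at -0.95 to Pim3 at 0.30, and Lifr and Stat4 are the 2 genes called higher.

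Markers of other cell types that ES cultures can hold were also measured. Few were tested, and their counts stand beside 14.1% higher and 16.6% lower of all tested genes. Of them, 4 fibroblast, 4 mesoderm, 3 trophoblast, 5 extraembryonic endoderm and 2 neural markers had at most 1 TPM as deposited in every sample. The group through which the tested ones passed the filter was not looked at. Fibroblast markers, 6 genes of which 2 were tested and both fell, summed to between 3.71 and 4.43 scaled TPM in WT and between 1.66 and 1.71 in C3G null cells. Mesoderm markers, 5 genes with 1 tested and lower, summed to between 4.16 and 5.17 and between 1.29 and 1.92. Trophoblast markers, 6 genes with 2 of 3 tested lower, summed to between 13.3 and 15.8 and between 9.65 and 11.1. Extraembryonic endoderm markers, 8 genes with both tested ones higher, summed to between 4.63 and 4.82 and between 10.2 and 12.9. Neural markers, 4 genes with 1 of 2 tested higher, summed to between 12.2 and 13.9 and between 23.2 and 25.5, with Neurog2 listed at 0 in all samples. The part of such cells in the differences of the LIF, JAK and STAT3 genes was not tested.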

How the data were processed

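RNA of 3 WT and 2 C3G null samples had been sequenced as paired-end reads. The submitters' processing notes list bcl2fastq 2.20, FastQC 0.11.7, STAR 2.5.1b and RSEM 1.2.31, with the builds mm10 and GRCm38. The authors deposited TPM for 142647 Ensembl transcripts, and strand use and annotation release are not given in the sources used here. GENCODE M21 matched 141524 of them, and summing gave 55147 symbols, 113 with several gene identifiers.

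The 12518 genes with at least 1 TPM in at least 2 samples were scaled by median of ratios and compared with limma 3.58.1 (R 4.3.3), using a trend on log2(TPM + 1) and Benjamini-Hochberg adjustment over all of them (threshold 0.05, two-sided). The prior degrees of freedom were 3.11 after scaling and infinite as deposited, beside 3 residual degrees of freedom. With an infinite prior the trend over genes replaces a gene's own variance. The limma p-values as deposited therefore do not measure the spread of the single gene between samples. The length and GC correction subtracted a loess trend (span 0.5). The main fit was tried on simulated data, and the alternative fits were not. Ratios and shares used exact permutation tests over all 10 assignments of the genotype labels (scipy 1.17.1). Alternatives were other scalings, pseudocounts and filters, no trend, each sample left out, and a replicate block.

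Genes were named by a rule, which takes the 10 genes, Rapgef1, and, per list, the 3 strongest significant changes each way. The other tested genes of the target list were named outside this rule, after their values were seen. The 10 genes and the lists were chosen with earlier results of these data known. The soluble LIFR and STAT3 beta shares, the levels of protein-coding transcripts and a scaling on coding genes outside chromosome 14 were added after seeing the data. Promoter windows come from RefSeq (GRCm38.p6). 1 gene of the list of receptor adapters is not reported here and was left out of its counts.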

Additional observations from a re-analysis of the deposited data

How the results depend on the processing

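Jak1 and Jak2 kept their direction and stayed past the threshold in every alternative that tested them, and Lif in 15 of 16, the exception being a replicate block together with the length and GC correction (-0.34, adjusted p = 0.0964 from limma). Lif and Jak2 had passed the filter through WT alone, and most alternatives share that filter, so these counts give no separate support for them. Without a filter they were at -0.52 and -0.56 (adjusted p = 0.0337 and 0.0171 from limma). As deposited, 0 of the 10 genes were higher and 8 lower, of all genes 181 were higher and 7109 lower, and of the 5 lists 0 and 42. With TPM over protein-coding genes 0 of the 10 were higher, of all genes 702 and 3753 lower, and of the lists 0. Without a filter 0 of the 10 were higher and 3 lower, and in the lists 0 and 10. Of all 33039 genes tested without it, 1212 were higher and 1634 lower. With a filter of 5 TPM 3 of the 10 were lower, Jak1, Socs3 and Pim1, and Lif, Jak2, Tyk2 and Socs5 were not tested, while 1 gene of the lists was higher, and of all genes 1122 were higher and 1348 lower. The length and GC correction gave 2 higher of the 10 and 7 in the lists, beside 2093 of all 12514 genes tested.

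With 1 sample left out, 0 to 1 of the 10 genes were higher and 3 to 4 lower, 909 to 1579 and 1385 to 1880 of all genes, both lowest without WT replicate 2, and 0 to 2 and 9 to 17 of the lists. A lone C3G null sample is then assumed to vary like the WT samples. The replicate numbers share no stated batch (correlation of the paired deviations -0.18 and 0.181). With a replicate block 0 of the 10 and 0 in the lists were higher, beside 1489 of all 12518 genes tested. The calls of Lifr (0.38, adjusted p = 0.0582) and Socs3 (-0.22, adjusted p = 0.132) were lost with it. Block and length and GC correction together gave 3 lower of the 10, 1338 of all genes and 10 in the lists.

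Rapgef1 was -0.11 (adjusted p = 0.239) with the length and GC correction and -0.084 (adjusted p = 0.475) with the block added. Signs turned as deposited for Lifr (-0.22), Tyk2 (-0.45) and Stat4 (-0.20), and with protein-coding TPM for Tyk2 (-0.14). They turned with the length and GC correction, alone and with the block, for Il6st (0.064 and 0.083) and Stat3 (0.072 and 0.064), with the block and the correction for Stat5b (0.013), and, with 1 sample left out, for Stat3 (from -0.16 to 0.023, the last without C3G null replicate 1). The log2 ratio of Jak2 to Jak1 turned to -0.33 without a pseudocount. Over protein-coding transcripts the share difference was 0.019 percentage points for Lifr-203 and -1.66 for Stat3-203. With 1 sample left out it ran from -1.51 to 0.10 for Il6st-201, from -4.14 to 14.79 for Socs5-201 and from -7.92 to 17.1 for Pim1-201. Except where shown, the cause of a move was not tested.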
